A study of Mus musculus with 12 samples.

Results

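Old quadriceps muscle that had received dasatinib plus quercetin (D+Q) was compared with young quadriceps, to ask which messenger RNAs still differed from young after treatment. The groups compared hold 8 of the 12 libraries of the series, 4 of D+Q and 4 of young, chosen by their labels, and the comparison covered every gene that passed an expression filter. All mice were C57BL/6. Young mice were 6 months old and no gavage is stated for them. D+Q mice were 24 months old and had been gavaged from month 20 with dasatinib at 5 mg/kg and quercetin at 50 mg/kg, on 3 days in every 2 weeks. The 4 old vehicle libraries came from 24-month mice gavaged with the carrier alone, and they show where D+Q stood beside old muscle without the drugs. They also entered the fit, so the spread between libraries was estimated over all 12. Age, gavage and drug therefore differ together between D+Q and young and cannot be told apart from that contrast alone. Whether the libraries came from separate mice is not in the labels, so p-values reflect only the spread among these libraries, which may be technical.

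Dasatinib blocks tyrosine kinases, quercetin is a flavonoid from plants, and together they are given as a senolytic, to clear senescent cells. Ageing muscle fibres lose contact with their motor nerves, and fibres that lose that contact switch on a set of genes that includes acetylcholine receptor subunits, the myogenic factor myogenin and growth arrest genes. The connective tissue around fibres is made mostly by resident fibroblast-like cells, whose transcription of collagens is high while the tissue is growing or being rebuilt.

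Library totals ran from 26715140 to 47818075 reads in young and from 43152512 to 45901603 reads in D+Q, where 3 reads correspond to 0.0627 to 0.112 CPM, counts scaled to a common library size, and 0.0654 to 0.0695 CPM respectively. CPM values below use library totals scaled by TMM and are compared only within a gene. The tissue label fitted its markers: 12 skeletal muscle genes summed to 132000 to 209000 CPM in young and 148500 to 229400 CPM in D+Q, while the heart gene Myl7 had 0 reads in young and 1 read in D+Q. Young replicate 2 stood apart from the other young libraries, with adipocyte markers (Adipoq, Plin1, Cfd and Lep) at 800 CPM against 41.9 to 330 CPM, and Schwann cell markers at 279 CPM against 125 to 144.5 CPM. Young replicate 4 also differed, with the lowest adipocyte markers, at 41.9 CPM. Its endothelial markers (Pecam1, Cdh5, Kdr and Cldn5) were at 235 CPM against 342 to 405 CPM in the other young libraries. D+Q replicate 4 had neutrophil markers at 23.9 CPM against 1.49 to 2.52 CPM in the other D+Q libraries. Effects of leaving out single libraries are given for the counts of calls and for many genes.

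Of 16146 genes tested, 144 differed between D+Q and young in edgeR's quasi-likelihood test at a Benjamini-Hochberg adjusted p under 0.05, which is 0.892% of the genes. Of these, 85 rose (0.526%) and 59 fell (0.365%) in D+Q, and 129 of them code for proteins. The change was over 2-fold for 81 genes. For 143 of the 144 all D+Q libraries lay on one side of all young libraries, as they did for 1080 tested genes in all (6.69%). Leaving out young replicate 2 gave 1935 genes, and all 144 were among them. Leaving out young replicate 1, 3 or 4 gave 49, 44 or 71 genes, and leaving out D+Q replicate 1, 2, 3 or 4 gave 80, 67, 59 or 145. A fit of the 8 D+Q and young libraries alone called 25 genes, 22 higher and 3 lower. Among the 144, 37 were called in every one of the 12 fits that left out 1 library. The sign changed for 0, but the groups of 143 did not overlap, so leaving out 1 library could hardly turn it. The number past the threshold therefore moved with single libraries, as the plot of counts by setting shows.

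**Figure D1:**
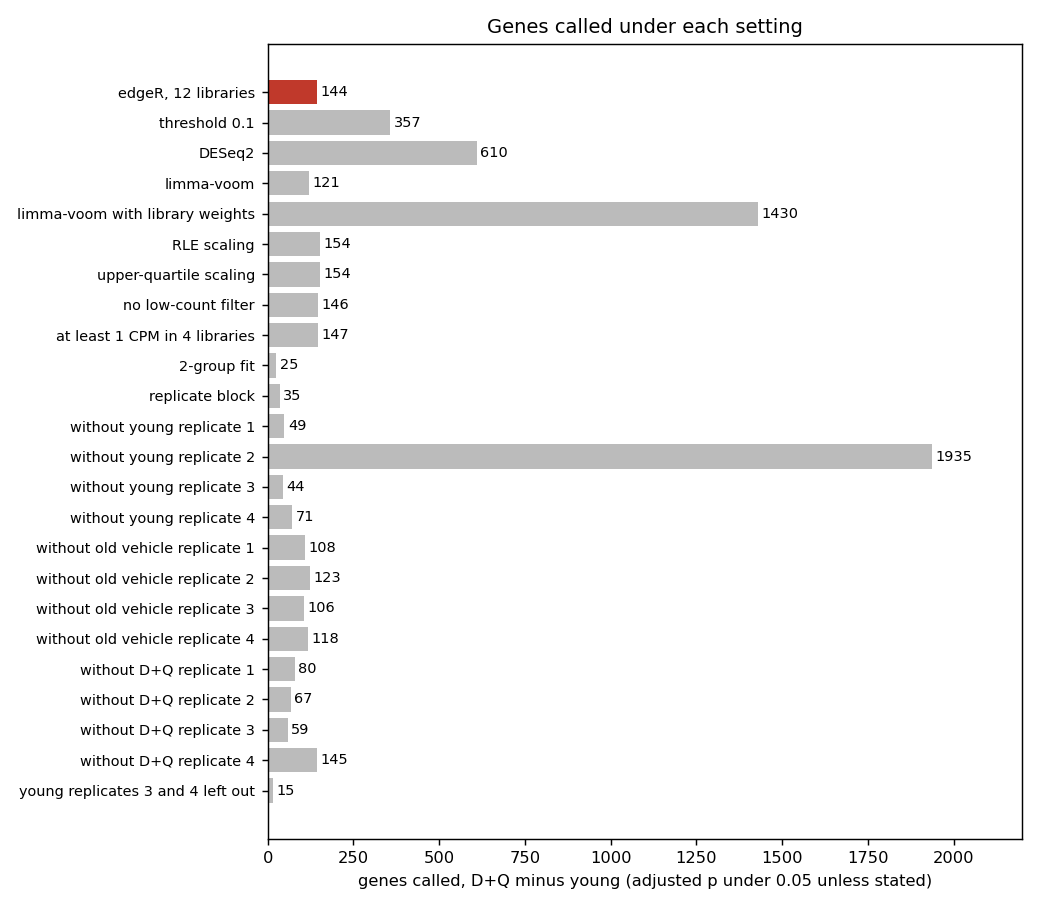
Number of genes called between D+Q and young (horizontal axis, genes) under each way of fitting the data (vertical axis); the top bar is the fit reported here. It gave 144 genes, leaving out young replicate 2 gave 1935, and leaving out young replicates 3 and 4 together gave 15.

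The same fit placed both old groups beside each other. Between old vehicle and young, 300 genes were called (1.86%), 195 higher (1.21%) and 105 lower (0.65%) in old vehicle. Between D+Q and old vehicle 0 genes were called (0.0%) in edgeR, with 349 at an unadjusted p under 0.05 and a smallest adjusted p of 0.221, while limma-voom called 0 and DESeq2 called 12. These comparisons share libraries, so their values are set side by side and not counted against each other. For 121 of the 144 genes the 95% interval of the D+Q to old vehicle difference included 0, and the median half-width of that interval was 0.41 on the log2 scale. An unadjusted edgeR p under 0.05 in that contrast was reached by 23 of the 144, beside 349 of all 16146 tested genes. The D+Q and old vehicle libraries did not overlap for 10 of the 144, where 351 of all tested genes (2.17%) had no overlap. The D+Q mean lay between the young and the old vehicle mean for 8 of these 10, among them Gadd45a, Runx1, Rrad, Plekhh1, Mfsd7a, Ces2c and Hspa2, and beyond old vehicle for 2 (Prkcz and Ptpla). The 144 genes were selected with the same D+Q libraries, so these counts are a description.

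The listed group with the most rises was the denervation and neuromuscular junction list. It mixes genes that muscle fibres switch on after losing their nerve with junction genes such as Ache and Colq. Of its 27 tested members, 6 rose in D+Q, 0 fell and 21 did not pass. The 6 were Ankrd1, Chrnb1, Gadd45a, Hdac4, Myog and Runx1. Over all tested genes 0.526% rose and 0.365% fell, which is the background for this and every list below. All lists were chosen with earlier results of these data known, so the calls within them are a description. The denervation list's median log2 fold change was 0.85 and 26 members were positive, against a median of -0.00 and 8025 positive genes among all 16146. In old vehicle against young the median was 0.94 with 12 members higher and 0 lower, and in D+Q against old vehicle it was -0.18 with 0 called.

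Gadd45a, a growth arrest and stress gene induced by denervation, stood at 17.1, 18.6, 20.6 and 19.0 CPM in young replicates 1 to 4. In D+Q replicates 1 to 4 it stood at 44.9, 37.0, 31.6 and 41.2 CPM. Every D+Q library was above every young library and below every old vehicle library, which ran from 60.6 to 98.5 CPM. It was 2.05-fold higher in D+Q than in young (log2 fold change 1.04 ± 0.15 SE, edgeR adjusted p = 0.00921). Against old vehicle the log2 fold change was -1.04 ± 0.15 SE, with an edgeR adjusted p of 0.221. Gadd45a lies on chromosome 6 from 67035096 to 67037457 of mm10.

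The acetylcholine receptor subunits differed in how far they stood from young. Chrnb1, the beta subunit, on chromosome 11 from 69784036 to 69795943, had 35.7, 42.3, 31.4 and 35.7 CPM in young. It had 81.7, 78.0, 76.2 and 60.1 CPM in D+Q, with no overlap (log2 fold change 1.03 ± 0.12 SE, edgeR adjusted p = 0.00407). Old vehicle ran from 80.2 to 98.8 CPM and overlapped D+Q. Chrna1, the alpha subunit, had 14.9 to 23.9 CPM in young and 46.9, 38.8, 43.6 and 21.2 CPM in D+Q. Its D+Q replicate 4 fell inside the young range, and the gene did not pass (log2 fold change 0.95 ± 0.23 SE, adjusted p = 0.0751). Without young replicate 2 or D+Q replicate 4 it passed, with a lowest adjusted p of 0.0129. Chrng, the fetal gamma subunit that adult junctions replace, had 18 reads over all young libraries, 185 over D+Q and 756 over old vehicle, and did not pass between D+Q and young (adjusted p = 0.128). Chrnd and Chrne, the delta and the adult epsilon subunit, had log2 fold changes of 0.85 (adjusted p = 0.225) and 0.25 (adjusted p = 0.485).

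Promoters of these receptor genes and of Myog are shown because myogenic factors such as myogenin are known to bind E-boxes in receptor promoters. The sequences are from RefSeq on GRCm38.p6, 250 bases before to 50 after each start, 5′ to 3′ on the gene's strand, with each E-box (CANNTG, the same on both strands) in capitals. The windows are chr11:69795888-69796187 (minus strand) for Chrnb1, chr2:73580289-73580588 (minus strand) for Chrna1, chr1:87205561-87205860 (plus strand) for Chrng and chr1:134289754-134290053 (plus strand) for Myog.
Chrnb1: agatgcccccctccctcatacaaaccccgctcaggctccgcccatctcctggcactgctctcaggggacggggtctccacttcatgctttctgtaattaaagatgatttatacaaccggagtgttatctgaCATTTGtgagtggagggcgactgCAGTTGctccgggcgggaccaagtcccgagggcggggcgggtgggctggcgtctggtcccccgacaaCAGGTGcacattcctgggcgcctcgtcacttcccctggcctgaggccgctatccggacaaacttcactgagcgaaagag
Chrna1: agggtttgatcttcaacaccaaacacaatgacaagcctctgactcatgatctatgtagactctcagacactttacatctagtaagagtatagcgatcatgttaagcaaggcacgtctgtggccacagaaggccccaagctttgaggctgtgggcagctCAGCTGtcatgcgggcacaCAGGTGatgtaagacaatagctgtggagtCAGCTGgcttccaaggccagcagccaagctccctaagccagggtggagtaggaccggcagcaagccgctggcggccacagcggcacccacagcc
Chrng: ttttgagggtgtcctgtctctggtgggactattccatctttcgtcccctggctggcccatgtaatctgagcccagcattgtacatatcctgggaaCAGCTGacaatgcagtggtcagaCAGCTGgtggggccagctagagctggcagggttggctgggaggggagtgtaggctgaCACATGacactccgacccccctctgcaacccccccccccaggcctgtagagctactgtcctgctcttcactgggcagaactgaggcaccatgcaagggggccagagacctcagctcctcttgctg
Myog: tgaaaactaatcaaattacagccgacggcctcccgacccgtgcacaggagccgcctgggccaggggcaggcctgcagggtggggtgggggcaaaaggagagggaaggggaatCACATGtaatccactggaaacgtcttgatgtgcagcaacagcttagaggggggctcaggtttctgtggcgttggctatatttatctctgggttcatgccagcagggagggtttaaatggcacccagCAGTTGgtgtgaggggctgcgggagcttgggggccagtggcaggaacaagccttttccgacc
The 3 receptor promoters held 3 E-boxes each and the Myog promoter 2. In Chrna1 and Chrng, 2 of the 3 were CAGCTG, and in Chrnb1 and Myog 0 were. Of all 32851 promoters in the table, 72.3% held CANNTG, with a median of 1, and 16.3% held CAGCTG. These matches describe the letters and are not evidence of binding.

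Myog itself, on chromosome 1 from 134289989 to 134292548, had 5.20, 3.97, 2.91 and 5.67 CPM in young and 14.1, 18.0, 14.6 and 9.36 CPM in D+Q. All D+Q libraries lay above young, and the gene rose 3.14-fold (log2 fold change 1.65 ± 0.35 SE, edgeR adjusted p = 0.0453). Runx1, a transcription factor of denervated fibres, had 3.45, 1.49, 2.66 and 3.29 CPM in young and 6.83, 8.75, 5.93 and 7.28 CPM in D+Q. It rose 2.65-fold (adjusted p = 0.0415), and all 4 D+Q libraries lay below the old vehicle range of 13.6 to 28.5 CPM. Hdac4, a histone deacetylase that acts between nerve loss and myogenin, rose 1.67-fold, from 30.7 ± 1.29 to 51.2 ± 5.59 CPM (SD, n = 4, adjusted p = 0.0338). Ankrd1, a stretch-responsive protein of the sarcomere, rose 5.14-fold. It had 15.5 to 18.5 CPM in young and 106, 131, 64.5 and 44.7 CPM in D+Q, without overlap (log2 fold change 2.36 ± 0.32 SE, adjusted p = 0.00693). Its old vehicle libraries ran from 104 to 233 CPM.

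Other members of the list gave values without a call. Sln, which inhibits the calcium pump, went from 8.22 to 34.5 CPM (log2 fold change 2.06, adjusted p = 0.0643), and Musk, the receptor kinase that organises the junction, from 2.65 to 4.79 CPM (adjusted p = 0.0811). The libraries of the groups did not overlap for either gene. Ache and Colq, the esterase of the junction and its anchor, had log2 fold changes of 0.49 and 0.36 (adjusted p = 0.31 and 0.372). Ankrd1, Chrnb1 and Gadd45a were called in all 12 fits without 1 library, while Hdac4 and Myog were called in 4 and Runx1 in 3. Each of these 3 lost its call without young replicate 1, 3 or 4 and without D+Q replicate 1, 2 or 3, among others, with adjusted p up to 0.105, 0.137 and 0.122. The fit of the 8 libraries alone called 3 members, Ankrd1, Chrnb1 and Gadd45a (adjusted p = 0.0304 for each). Leaving out young replicate 2 gave 11 called members, and leaving out young replicate 3 or D+Q replicate 1, 2 or 3 gave 3.

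**Figure D2:**
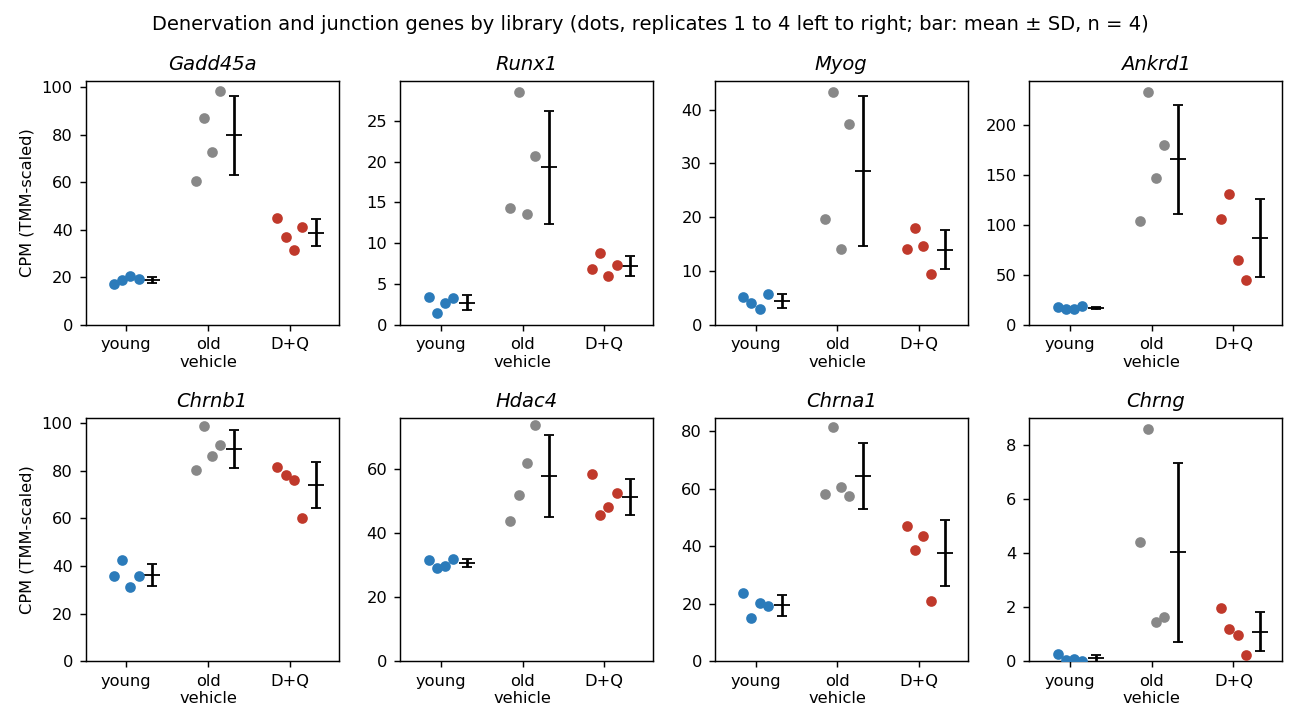
CPM (TMM-scaled, vertical axes from 0) of 8 denervation and junction genes in each library of young, old vehicle and D+Q; dots are libraries and bars the mean and SD of 4. D+Q libraries lie above young for Gadd45a, Runx1, Myog, Ankrd1, Chrnb1 and Hdac4, while for Chrna1 D+Q replicate 4, at 21.2 CPM, lies within the young range.

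Several collagens and other matrix genes fell in D+Q relative to young. Of 45 tested members of that list, 8 fell, 0 rose and 37 did not pass, with 40 negative and a median log2 fold change of -0.39. Over all 16146 tested genes 59 fell (0.365%) and 8121 were negative, with a median of -0.00. The 8 were the fibrillar collagens Col3a1, Col1a2 and Col5a2, the beaded-filament collagen Col6a3, the microfibril protein Fbn1, and the matricellular proteins Sparc, Postn and Tnc. In old vehicle against young, 7 members were lower with a median of -0.33. The D+Q to old vehicle median was -0.08 with 0 called.

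Col3a1, on chromosome 1 from 45311538 to 45349706, had 267, 214, 220 and 263 CPM in young and 104, 94.9, 111 and 50.6 CPM in D+Q. The groups did not overlap, and D+Q replicate 4 was the lowest library of all. The gene fell by 1.42 on the log2 scale (SE 0.22, edgeR adjusted p = 0.0111), a 2.67-fold difference. Col1a2, which pairs with Col1a1 in type I collagen, had 179, 135, 136 and 195 CPM in young and 69.4, 67.3, 74.8 and 35.2 CPM in D+Q, also without overlap (2.61-fold lower, adjusted p = 0.0138). Its call ended without young replicate 1 (adjusted p = 0.0539). Col1a1 had a 2.16-fold lower mean, 28.0 against 60.2 CPM, and did not pass (adjusted p = 0.154).

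Sparc, a collagen-binding protein on chromosome 11 from 55394500 to 55420080, stood at 379, 363, 296 and 380 CPM in young and at 215, 231, 219 and 208 CPM in D+Q. The old vehicle libraries, at 218 to 243 CPM, overlapped D+Q. Sparc fell 1.63-fold (log2 fold change -0.70 ± 0.10 SE, edgeR adjusted p = 0.00693). Postn, a matricellular protein, fell 2.54-fold, from 17.9 to 38.4 CPM in young to 7.23 to 14.4 CPM in D+Q. Tnc, tenascin C, fell 1.83-fold, Fbn1 1.74-fold, Col5a2 1.8-fold and Col6a3 1.59-fold. Basement membrane genes did not pass: Col4a1 had a log2 fold change of -0.19, Col4a2 -0.06 and Lamc1 -0.06, with adjusted p = 0.587, 0.905 and 0.726.

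Col3a1 and Sparc were called in all 12 fits without 1 library, while Fbn1, Tnc and Postn were called in 4, 3 and 6, with adjusted p up to 0.113, 0.115 and 0.0833. Each of these 3, and Col5a2 (adjusted p up to 0.0687), was lost without young replicate 1, 3 or 4 and without 1 or more of the D+Q libraries. Col6a3 was called in 3 of the 12 fits, with adjusted p up to 0.111. In the fit of the 8 libraries alone 0 matrix members were called, with adjusted p = 0.0508 for both Col3a1 and Sparc, and with a replicate block 1 was, Sparc. The list had 16 members lower without young replicate 2, 2 without young replicate 1, and 3 without young replicate 3 or 4. It had 4 without D+Q replicate 1, 2 or 4 and 5 without D+Q replicate 3, and its median stayed between -0.49 and -0.35 in those fits.

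**Figure D3:**
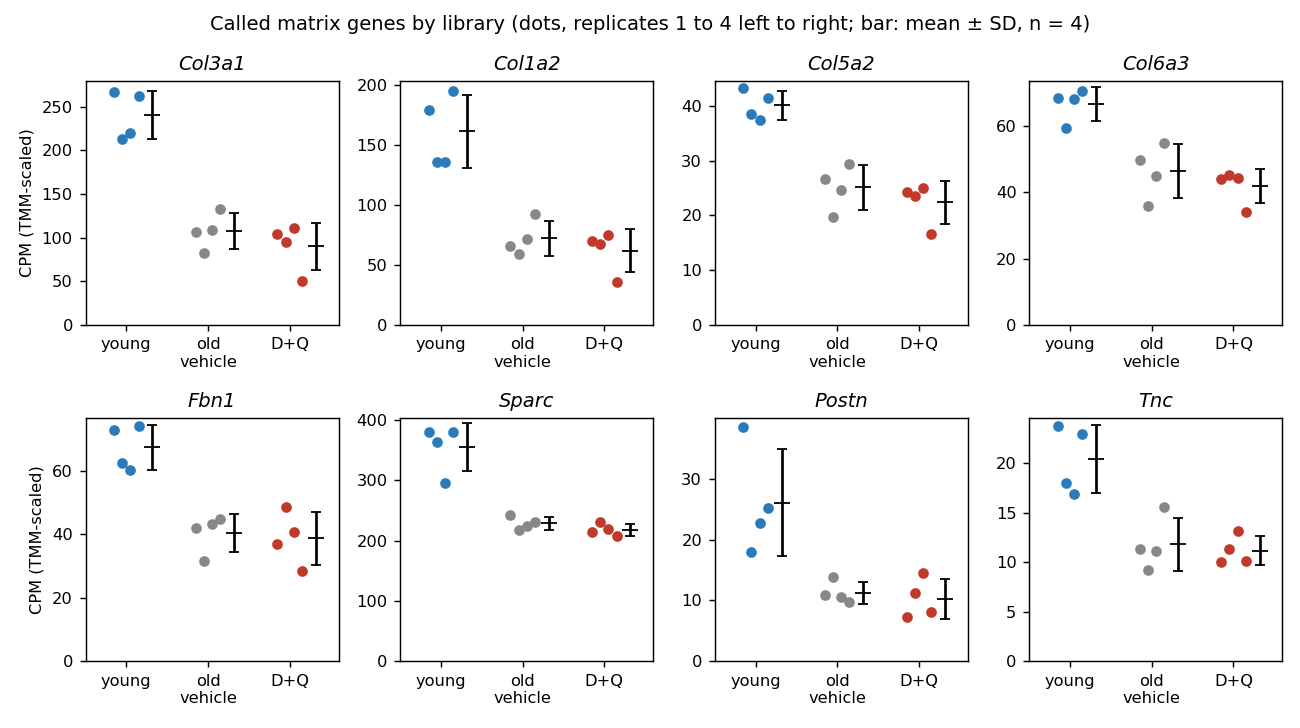
CPM (TMM-scaled, vertical axes from 0) of the 8 called collagen and matrix genes in each library of young, old vehicle and D+Q; dots are libraries and bars the mean and SD of 4. For each gene the 4 D+Q libraries lie below the 4 young libraries, and old vehicle and D+Q overlap.

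Tendon cell genes and markers of fibro-adipogenic progenitors, the fibroblast-like cells of muscle, were listed apart. Of 15 tendon genes, 2 fell, Col11a1, a fibrillar collagen, and Tnc, which is also in the matrix list, and the median was -0.83. Col11a1 had 1.88 to 4.05 CPM in young and 0.612 to 1.32 CPM in D+Q (3.28-fold lower, adjusted p = 0.0226), and lost its call without young replicate 1 or 4 or D+Q replicate 1, 3 or 4 (adjusted p up to 0.0873). The summed tendon markers (Tnmd, Scx, Fmod and Thbs4) were 359 to 472 CPM in young and 178 to 329 CPM in D+Q. None of these 4 passed, with log2 fold changes of -1.22 for Tnmd, -0.66 for Fmod, -0.62 for Thbs4 and 0.73 for Scx, the tendon transcription factor (edgeR adjusted p = 0.129, 0.153, 0.244 and 0.246). Their part in the lower collagen values was not tested. Of 18 progenitor genes, Cd34, a surface marker, and Fbn1 fell, Cxcl14, a chemokine, rose, and the median was -0.19. Cd34 had 103, 90.0, 97.0 and 107 CPM in young and 61.9, 71.7, 67.0 and 60.5 CPM in D+Q (1.52-fold lower, edgeR adjusted p = 0.0113). Cxcl14 had 18.2 to 20.3 CPM in young and 29.3 to 33.1 CPM in D+Q (1.58-fold higher, adjusted p = 0.0111). In the fit of the 8 libraries alone neither Cd34 nor Cxcl14 passed (adjusted p = 0.078 and 0.0543). Pdgfra, the receptor that defines these cells, had a log2 fold change of -0.39 (adjusted p = 0.237). In bulk tissue, fewer cells of a type and less RNA per cell cannot be told apart.

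The largest rises among genes whose mean log2 CPM reached 1 and with no overlap between groups included genes of several kinds. Prkcz, atypical protein kinase C zeta, had the smallest adjusted p. It had 2.35, 2.30, 1.60 and 1.70 CPM in young and 8.24, 8.04, 8.38 and 11.8 CPM in D+Q. D+Q replicate 4 was the highest, and the gene rose 4.55-fold (log2 fold change 2.19 ± 0.18 SE, edgeR adjusted p = 0.00029). Mss51, a muscle-enriched mitochondrial protein, had 41.2, 74.0, 57.7 and 45.6 CPM in young and 172, 183, 178 and 394 CPM in D+Q (4.24-fold higher, adjusted p = 0.00693). Tmem132b, a membrane protein, rose 6.11-fold, from 1.78 ± 0.372 to 10.9 ± 2.45 CPM (SD, n = 4), and stood at 10.2 ± 3.30 CPM in old vehicle. For Prkcz, Mss51 and Tmem132b the 95% interval of the D+Q to old vehicle difference included 0 (-0.06 to 0.65, -0.33 to 0.82 and -0.46 to 0.65 on the log2 scale). Each of these genes was called in all 12 fits without 1 library, among them the one without D+Q replicate 4.

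A second set of rises had D+Q means between those of young and old vehicle. Rrad, a GTPase that restrains calcium channels, had 1.42 to 3.47 CPM in young, 27.2, 21.1, 16.1 and 4.30 CPM in D+Q, and 30.7 to 87.0 CPM in old vehicle. D+Q replicate 4 was close to young, and the gene rose 6.98-fold over young (edgeR adjusted p = 0.0256). Its log2 fold change against old vehicle was -1.70, with a 95% interval of -2.74 to -0.66, and did not pass after adjustment. Plekhh1 had 0.638 to 0.992 CPM in young, 3.42 to 7.16 CPM in D+Q and 8.32 to 15.4 CPM in old vehicle (6.5-fold over young, adjusted p = 0.00329). Cpne2, a calcium-dependent membrane-binding protein, rose 4.66-fold over young (adjusted p = 0.00715), with D+Q at 25.9 ± 11.5 CPM and old vehicle at 43.8 ± 11.1 CPM (SD, n = 4). Fam196b rose 3.8-fold and Srrm4os 3.35-fold. For both, D+Q and old vehicle libraries overlapped. The 95% interval of their difference included 0 (-0.84 to 0.60 and -0.98 to 0.01 on the log2 scale). Srrm4os is an antisense transcript, and without the strand setting of the counting its reads cannot be told apart from those of its partner gene. Without young replicate 1, 3 or 4 Rrad and Fam196b lost their calls. So did Rrad without D+Q replicate 1, 2 or 3 and Fam196b without D+Q replicate 2 or 4, with adjusted p up to 0.0913 and 0.0808.

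Among the largest falls were secreted proteins. Wif1, a secreted Wnt inhibitor, had 5.21 to 11.2 CPM in young and 2.17 to 3.74 CPM in D+Q, without overlap, and fell 3.2-fold (edgeR adjusted p = 0.0411). It kept its call in 3 of 12 fits without 1 library, those without young replicate 2 or old vehicle replicate 2 or 4, with adjusted p up to 0.129 in the others. Adamts3, which trims procollagen, fell 2.45-fold (adjusted p = 0.0128), and its adjusted p was 0.0523 without young replicate 3.

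Cacna2d4, a calcium channel subunit, fell 3.81-fold, from 4.45 to 6.03 CPM in young to 0.776 to 2.01 CPM in D+Q (edgeR adjusted p = 0.00633). Nrep, a protein linked to nerve and wound repair, fell 3.97-fold (adjusted p = 0.0189). Its young replicate 2, at 89.5 CPM, was far below the other young libraries at 212 to 245 CPM, and D+Q ran from 21.9 to 68.9 CPM. Mlf1, at 370 ± 67.6 CPM in young and 153 ± 48.7 CPM in D+Q (SD, n = 4), fell 2.42-fold and had 152 CPM in old vehicle. Aldh1l2, a mitochondrial folate enzyme, fell 2.27-fold, and Chodl, a membrane lectin, 1.93-fold. Nrep lost its call without young replicate 1 or 3 or D+Q replicate 2 or 3 (adjusted p up to 0.0636), Mlf1 without young replicate 3 or 4 or D+Q replicate 1, 2 or 3 (up to 0.0719), and Aldh1l2 without young replicate 3 or D+Q replicate 3 (up to 0.0554). Chodl was called in 1 of 12 fits without 1 library, the one without young replicate 2, and had an adjusted p of up to 0.119 in the others.

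**Figure D4:**
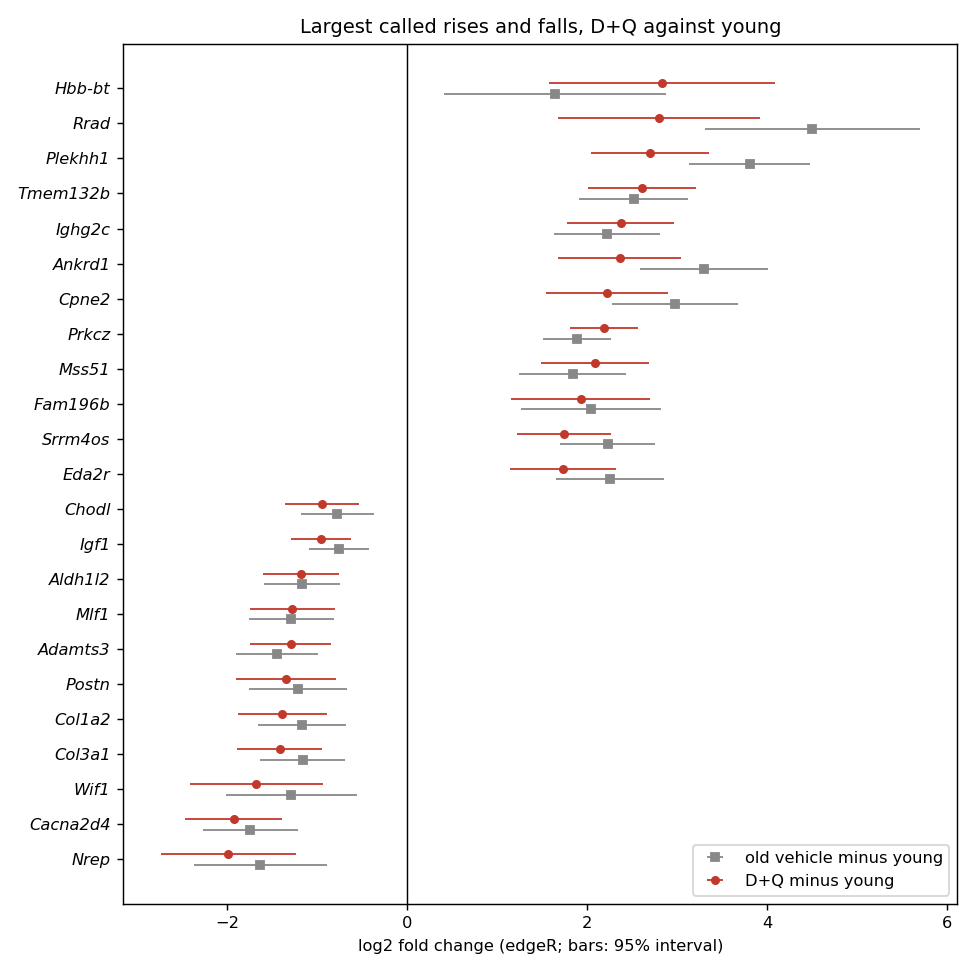
Log2 fold change (horizontal axis) of the 12 largest rises and 11 of the 12 largest falls called between D+Q and young, for D+Q minus young (circles) and old vehicle minus young (squares) with 95% intervals from edgeR. Both contrasts share the young libraries, and the genes were picked by their D+Q values. Among the rises, for example, Rrad, Plekhh1 and Ankrd1 lie further from 0 in old vehicle, and Hbb-bt and Prkcz in D+Q. Most plotted falls, among them Nrep, Wif1, Col3a1 and Igf1, lie further from 0 in D+Q, while Adamts3 and Mlf1 lie further in old vehicle.

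Growth factor genes moved in both directions. Of 35 tested members of the insulin-like growth factor, activin and bone morphogenetic protein list, Gdf5 and Igfbp2 rose and Igf1 and Fstl1 fell, with a median of 0.18. Igf1, the growth factor that drives muscle protein synthesis, had 28.4, 21.8, 25.0 and 20.5 CPM in young and 13.0, 13.3, 11.1 and 11.9 CPM in D+Q. No library overlapped, and it fell 1.94-fold (log2 fold change -0.96 ± 0.16 SE, edgeR adjusted p = 0.0133). Fstl1, a secreted follistatin-like protein, fell 1.78-fold (adjusted p = 0.0176). Gdf5, a bone morphogenetic protein family ligand raised by denervation, had 28 reads over all young, 276 over D+Q and 668 over old vehicle libraries (adjusted p = 0.0448). Igfbp2, an Igf1-binding protein, had 5 reads over young and 64 over D+Q (adjusted p = 0.0433), so its fold is poorly fixed. Mstn, the muscle growth inhibitor, had a log2 fold change of -0.13 (adjusted p = 0.784). Igf1 lost its call without young replicate 1 or 3 or D+Q replicate 3, with adjusted p up to 0.0555, and Fstl1 without young replicate 1, 3 or 4 or D+Q replicate 1 or 3, with adjusted p up to 0.0665. Gdf5 and Igfbp2 were called in 4 and 3 of 12 such fits, and lost their calls without young replicate 1, 3 or 4 or D+Q replicate 1, 2 or 3 (adjusted p up to 0.146 and 0.128).

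Most tested genes linked to senescence did not pass between D+Q and young, nor between old vehicle and young, and shares over all genes are given with the secreted factors below. Cdkn1a, the p21 cell cycle inhibitor, had 57.2, 79.8, 28.8 and 114 CPM in young and 107, 135, 127 and 204 CPM in D+Q. The groups overlapped through young replicate 4, and the gene did not pass (log2 fold change 1.03 ± 0.34 SE, edgeR adjusted p = 0.184). Old vehicle ran from 138 to 241 CPM and did not pass against young either (edgeR adjusted p = 0.0545). Cdkn2a, the p16 gene, was not tested, with 1 read over young, 2 over D+Q and 5 over old vehicle libraries. Gdf15, with 1 and 14 reads over young and D+Q, and Il6, with 24 and 26, were also below the filter.

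Of 15 kinase inhibitors and arrest regulators 1 rose, Gadd45a, with a list median of 0.20. Cdkn2b had a log2 fold change of -0.22 (adjusted p = 0.584) and Rb1 0.23 (adjusted p = 0.431). Of 21 p53 targets 1 rose, Eda2r, with a list median of 0.01. Eda2r, a TNF receptor superfamily member, had 12.4, 16.2, 17.3 and 23.3 CPM in young and 47.5, 62.5, 32.4 and 87.6 CPM in D+Q. Every D+Q library lay above young, and the gene rose 3.33-fold (log2 fold change 1.74 ± 0.27 SE, adjusted p = 0.0118). Without young replicate 3 its adjusted p was 0.0503. Old vehicle ran from 71.9 to 92.3 CPM, and the D+Q to old vehicle difference was -0.51 ± 0.26 SE.

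Of 46 tested secreted factors associated with senescence, 3 rose (Cxcl10, Egf and Igfbp2), 1 fell (Igf1) and 42 did not pass, with a median of 0.01. Over all tested genes 0.526% rose and 0.365% fell in that contrast. In old vehicle against young 4 of the secreted factors were higher and 1 lower, with a median of 0.08, where 1.21% of all tested genes were higher and 0.65% lower. The D+Q to old vehicle median was -0.01 with 0 called. Cxcl10, an interferon-induced chemokine, had 28 reads over young and 291 over D+Q libraries, at 0.0699 to 0.397 and 0.51 to 2.86 CPM (edgeR adjusted p = 0.0351). It lost its call without young replicate 1 or 3, old vehicle replicate 3 or D+Q replicate 1, 2 or 3, with adjusted p up to 0.113. Egf, epidermal growth factor, rose 1.48-fold, from 59.6 to 72.8 CPM in young to 82.9 to 103 CPM in D+Q (adjusted p = 0.0283), and lost its call without young replicate 1, 3 or 4 or D+Q replicate 1, 2 or 3 (adjusted p up to 0.0986). Ccl2, a monocyte chemokine, had a log2 fold change of -0.29 (adjusted p = 0.766). BCL2 family genes, which set the threshold for cell death, had 0 of 18 called and a median of 0.02. Of 25 kinases that dasatinib inhibits 0 were called, with a median of 0.13.

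Blood cell lists had high medians in D+Q, and most of their tested members did not pass. Of 8 tested red cell genes 2 rose, Hbb-bt and Hba-a2, with a list median of 2.68, where 0.526% of all tested genes rose. Hbb-bt, a beta globin, had 1.07, 2.74, 1.49 and 1.16 CPM in young, 3.13, 16.0, 11.1 and 16.2 CPM in D+Q, and 1.89 to 10.2 CPM in old vehicle. D+Q replicate 1 was close to young, and the gene rose 7.12-fold over young (edgeR adjusted p = 0.0424). The summed red cell markers were 4.59 to 14.5 CPM in young and 14.5 to 86.0 CPM in D+Q. Alpha and beta globins have near-identical copies, so the split of reads between Hba-a1 and Hba-a2 is uncertain. Both calls ended without young replicate 1, 3 or 4, old vehicle replicate 2 or 4, or D+Q replicate 2, 3 or 4, with adjusted p up to 0.135 for Hbb-bt and 0.14 for Hba-a2.

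Of 11 B cell and plasma cell genes 1 rose, Ighg2c, an immunoglobulin heavy chain, with a list median of 0.82. It had 2.89, 2.90, 1.24 and 1.5 CPM in young and 12.8, 9.57, 9.46 and 13.0 CPM in D+Q. The old vehicle libraries, at 8.10 to 12.6 CPM, overlapped D+Q, and the gene rose 5.19-fold over young (edgeR adjusted p = 0.00372). Immunoglobulin genes share sequence, so its share of their reads is uncertain. Summed B and plasma cell markers were 83.8 to 142.8 CPM in young and 158 to 307.5 CPM in D+Q, nearly all of it Ighm. Cd79a and Ms4a1, which mark B cells, were below the filter.

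Antigen presentation genes had 0 of 22 called, 20 positive and a median of 0.47, with Cd74, the class II invariant chain, at 0.74 (edgeR adjusted p = 0.267). The median was between 0.26 and 0.66 without 1 library. Macrophage genes had 0 of 26 called and a median of 0.11, and T and NK cell genes 0 of 3 tested and a median of 0.46. Neutrophil genes had 0 of 5 called and a median of 1.64, which ranged from 0.41 to 2.00 without 1 library, with their markers highest in D+Q replicate 4. Of 38 interferon-induced genes 1 rose, Cxcl10, and the median was -0.04.

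The lists of fibre type genes held no call between D+Q and young. Fast fibre genes had 0 of 18 called and a median of 0.17, and slow fibre genes 0 of 16 and 0.14. Myh4, the fast 2B myosin, had 34554 ± 7394 CPM in D+Q and 35150 ± 4934 CPM in young (SD, n = 4, edgeR adjusted p = 0.937). Myh1, the fast 2X myosin, had 5398 to 6681 CPM in young and 7928 to 8396 CPM in D+Q without overlap, and did not pass (log2 fold change 0.43 ± 0.11 SE, adjusted p = 0.0873). Myh2 and Myh7, the 2A and slow myosins, had log2 fold changes of 0.17 and 0.57 (adjusted p = 0.649 and 0.463). Of 30 genes of the Z-disc and stretch response 1 rose, Ankrd1, with a median of 0.29. Of 37 ion channel and calcium handling genes Rrad rose and Cacna2d4 fell, with a median of 0.16.

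Satellite cell and myogenic genes had 1 rise, Myog, and 1 fall, Chodl, among 22, with a median of 0.26. Pax7, the marker of satellite cells, had a log2 fold change of -0.44 (edgeR adjusted p = 0.417). Atrophy and autophagy genes had 0 of 30 called and a median of 0.09. Of 50 nuclear-encoded oxidative phosphorylation genes 1 fell, Ndufb2, a complex I subunit, from 119 ± 7.88 to 90.3 ± 3.53 CPM (SD, n = 4, 1.32-fold lower, adjusted p = 0.0368). It was called in 1 of 12 fits without 1 library, the one without young replicate 2, with adjusted p up to 0.114 in the others, and the list median was -0.07. All 37 mitochondrial genome genes were listed at 0 reads in every library and were not tested.

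The remaining lists had 0 members called in either direction. Medians were 0.21 for 26 glycolysis genes, -0.05 for 30 fatty acid oxidation genes, 0.10 for 31 antioxidant genes, -0.11 for 23 heat shock genes and 0.08 for 20 clock genes. They were 0.01 for 22 polyamine and amino acid transport genes, -0.11 for 22 proliferation genes and -0.02 for 22 immediate early genes. Among cell types they were -0.23 for 20 adipocyte, 0.12 for 21 endothelial, 0.18 for 16 smooth muscle and -0.04 for 18 Schwann cell genes. The adipocyte median ran from -0.54 to 0.23 without 1 library. A list without a call is not shown to be equal between the groups.

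**Figure D5:**
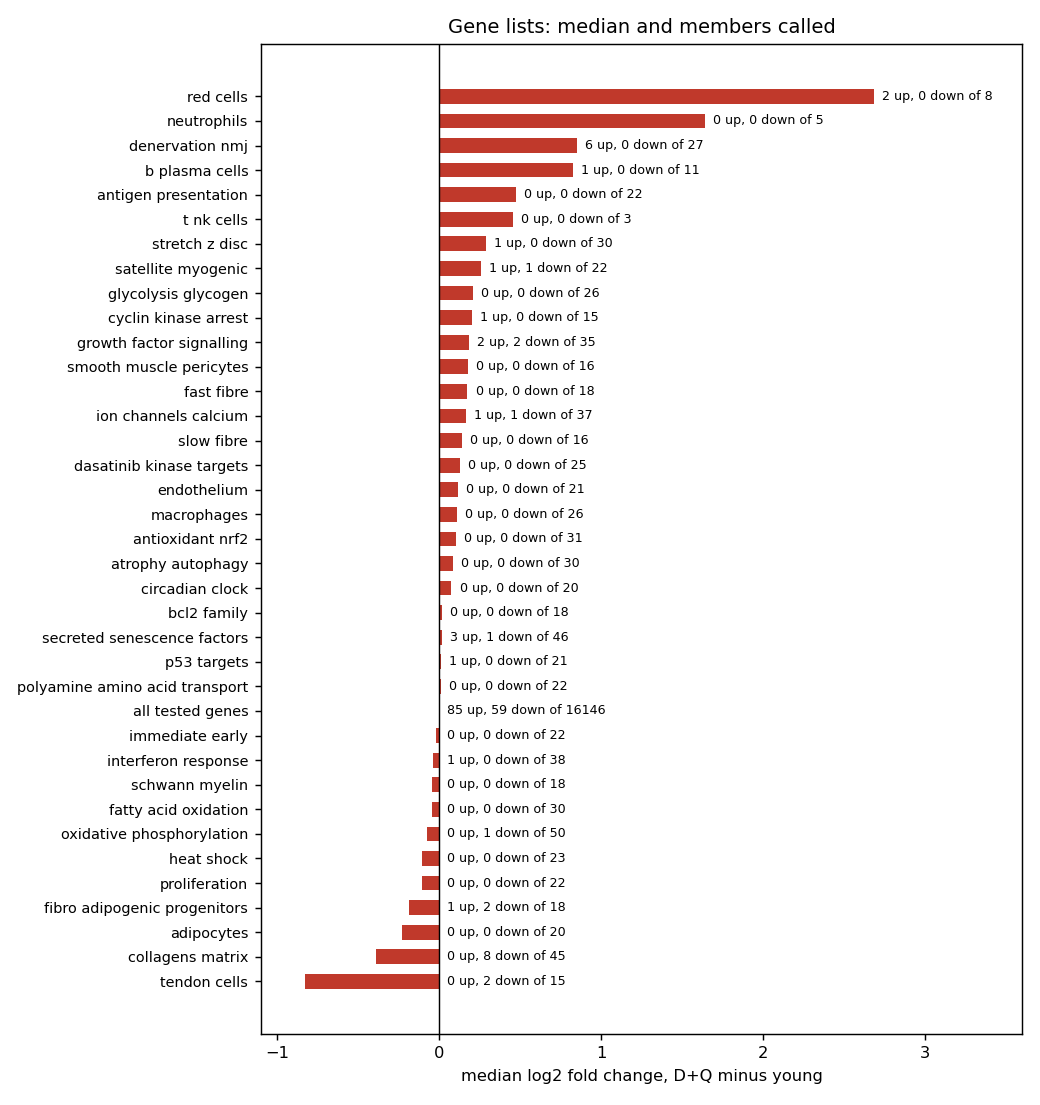
Median log2 fold change, D+Q minus young (horizontal axis), of each gene list, with the number of its tested members called higher and lower. Red cell genes have the highest median at 2.68 and tendon genes the lowest at -0.83. Denervation and junction genes have the most rises, 6 of 27, and matrix genes the most falls, 8 of 45.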

How the data were processed

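Quadriceps RNA was sequenced from TruSeq stranded mRNA libraries, per the labels' protocols. Per the submitters' processing notes, STAR 2.6.1c, Subread and featureCounts 1.5.1 were used on mm10; neither strand setting nor annotation release was found. Whole-number gene counts deposited by the authors were used for every test, and the authors' deposited RPKM values only to check them: the ratio of RPKM to counts per length varied across genes by no more than 0.056% (coefficient of variation). Of 43346 listed genes, 27 had date-like symbols, restored from the reference by identifier.

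Groups came from the labels. edgeR 4.0.16 in R 4.3.3 kept genes by filterByExpr (minimum count 10, total 15), scaled libraries by TMM and fitted 1 quasi-likelihood model of group means to all 12 libraries. A call needs a Benjamini-Hochberg adjusted p under 0.05. The standard error is the log2 fold change over the square root of F. The script was tested on simulated data. Other settings were DESeq2 1.42.0, limma-voom (limma 3.58.1) with and without library weights, other scalings and filters, a 2-group fit, a replicate block, a threshold of 0.1, and leaving out libraries. Replicate libraries differed beyond counting noise, so none was taken for a copy.

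The rule named, from called genes whose groups did not overlap and whose mean log2 CPM reached 1, the 12 that rose most and the 12 that fell most (no predicted gene, clone or pseudogene). It added as many as 4 called genes per list, over 36 lists, and a set of 21 genes; other list members were named by role. A few genes are not reported here. Of 858 genes in the lists, 786 were tested. The comparison, the lists and the rule were chosen with earlier results of these data known. Promoter sequences and E-box matches came from RefSeq on GRCm38.p6.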

Additional observations from a re-analysis of the deposited data

Results flagged for a closer look

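In several groups of 4, 1 library lay far from the other 3 by Dixon's test, which flags about 1 in 20 groups by chance. Every named gene, 55 of them tested, was screened in young and in D+Q, so several flags are expected by chance. D+Q replicate 4 was the high library for Prkcz at 11.8 CPM (the others 8.04 to 8.38), Mss51 at 394 CPM (172 to 183) and Mstn at 111 CPM (52.3 to 58.7), and the low one for Egf at 82.9 CPM (101 to 103). The same library had the highest neutrophil markers, and whether these go together was not tested. D+Q replicate 3 was high for Wif1 at 3.74 CPM (2.17 to 2.28) and D+Q replicate 2 for Col11a1 at 1.32 CPM (0.612 to 0.688). Young replicate 1 had 1 read each of Cdkn2a and Gdf15, 0.0233 CPM, where the other young libraries had 0.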

How the results depend on the processing

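The number of genes called depended strongly on the setting. The direction of called genes is no check, since calls pick genes whose groups lie apart. Between D+Q and young, 144 genes (85 higher, 59 lower) became 357 (184 and 173) at a threshold of 0.1, 610 (322 and 288) in DESeq2, 1430 (832 and 598) in limma-voom with library weights, 25 (22 and 3) in the 2-group fit, 35 (26 and 9) with a replicate block and 15 (7 and 8) without young replicates 3 and 4; fewer libraries entered the 2-group and left-out fits, and otherwise the cause was not tested. Without 1 library the count ran from 44 to 1935, with 34 to 1067 higher and 10 to 868 lower. Between D+Q and old vehicle DESeq2 called 12 genes and each other setting 0. Between old vehicle and young, 300 became 566 at a threshold of 0.1, 778 in DESeq2, 678 with library weights, 188 in the 2-group fit, 141 with the replicate block, 80 without young replicates 3 and 4, and 146 to 1022 without 1 library. Same-numbered young and D+Q libraries had correlations of -0.32 to 0.41, and 2 of 4 young libraries correlated best with their own number, so the numbers were not taken as pairs.

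Among 43 genes both named and called, 16 were called in all 12 fits without 1 library and 5 in every one of 22 settings. With at least 1 CPM in 4 libraries, no T and NK cell gene was left, so that list has no value there. Signs turned only for genes that were not called: Ccl2 to 0.078 without young replicate 4 (-0.657 to 0.078 over the fits without 1 library), Mstn to 0.003 without young replicate 3 and 0.232 without young replicates 3 and 4 (-0.459 to 0.003), and Myh4 to 0.037, 0.002 and 0.081 without young replicate 2, D+Q replicate 3 and D+Q replicate 4 (-0.183 to 0.081) and 0.024 with library weights. Depth limited Cdkn2a, Gdf15 and Il6, which were below the filter, and Igfbp2, Gdf5, Chrng and Cxcl10, which had 5 to 28 reads over all young libraries.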

Other observations

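Some called genes outside the rule for named genes are given here, chosen after their values were seen. Krt18, a keratin of simple epithelia, had 0.0850 to 0.178 CPM in young, 11.3, 6.69, 4.89 and 2.75 CPM in D+Q and 7.16 to 51.6 CPM in old vehicle (D+Q minus young log2 fold change 5.72, edgeR adjusted p = 0.00693). E2f2, a cell cycle transcription factor, had 4.07 CPM in young and 11.5 CPM in D+Q, 2.82-fold higher (adjusted p = 0.00372), and 12.1 CPM in old vehicle. Trp63, a p53 family member, rose 2.10-fold (adjusted p = 0.00714), with every D+Q library at 25.1 to 35.3 CPM above young at 12.8 to 16.6 CPM. Camk2b, a calcium-dependent kinase, rose 2-fold, from 156 to 311 CPM (adjusted p = 0.0176). Without 1 library, Krt18, E2f2 and Trp63 were called in all 12 fits, and Camk2b in 7, with adjusted p up to 0.0687.

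Sdk1, a cell adhesion protein, had 2.41 CPM in young, 2.96 CPM in old vehicle and 5.40 CPM in D+Q (D+Q minus young edgeR adjusted p = 0.0448). It was called in 3 of 12 fits without 1 library, with adjusted p up to 0.127, and its log2 difference from old vehicle, 0.87, did not pass after adjustment. Ces2c, a carboxylesterase, and Mfsd7a, a transporter, had D+Q values between young and old vehicle without overlap with either, at 1.15 and 5.85 CPM in D+Q, 0.157 and 2.31 CPM in young and 3.69 and 11.7 CPM in old vehicle. Mfsd7a was called in all 12 fits without 1 library and Ces2c in 11, with an adjusted p of 0.0523 in the other.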
